A study of Homo sapiens with 18 samples.

Results

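The 9 genes described here encode the core of the PI3K, AKT and mTOR pathway: the PI3K subunits PIK3CA and PIK3R1, the kinases AKT1 and AKT2, the inhibitors TSC1 and TSC2, and MTOR with its partners RPTOR and RICTOR. They were chosen by name, not by their measured values, though with earlier results of these data known. Each was found through its RefSeq identifiers as 1 of the 23500 entries of the expression table. The experiments used ZR751, a long-established luminal line of ER+ breast cancer. MLL3, the product of KMT2C and a methyltransferase that places H3K4me1 at enhancers, was knocked down in it with a lentiviral short hairpin RNA (ZR751shMLL3), and the control line carried a hairpin against luciferase (ZR751shLucif). Each line gave 2 RNA-seq libraries and 2 ChIP-seq libraries for each of H3K4me1, ERα and SP1, with 1 input library per line, which makes 18 samples. Every group therefore shared the ZR751 background, stable lentiviral transduction, sorting for GFP and early-passage culture in medium with insulin, the hormone that switches this pathway on. The knockdown rests on a single hairpin and leaves some MLL3 in the cells, and the submitters call the replicates biological without saying how they were separated, so p-values measure only the spread between these libraries. The question asked of each gene was whether its RNA, and the H3K4me1, ERα and SP1 peaks around it, differed between the lines.

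PI3K is a lipid kinase in which a regulatory subunit holds a catalytic subunit until a growth factor or insulin receptor is active, and the lipid it makes brings AKT kinases to the membrane. AKT phosphorylates the TSC complex and so relieves its block on Rheb, the small GTPase that activates mTOR. mTOR is the kinase of mTORC1, which is built on RPTOR and drives protein and lipid synthesis, and of mTORC2, which is built on RICTOR and phosphorylates AKT. The pathway is frequently mutated in ER+ breast cancer, where it is studied as a route to endocrine therapy resistance.

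The libraries set limits on every value that follows. KMT2C, the targeted gene, had 2.34 and 6.77 FPKM (fragments mapped per kilobase of transcript, scaled to the size of the library) in ZR751shLucif and 1.07 and 2.69 FPKM in ZR751shMLL3, a log2 fold change of -1.02 ± 0.54 (SE) with an adjusted limma p of 0.629. Its lines overlapped, since ZR751shLucif replicate 1 lay below ZR751shMLL3 replicate 2, and its log2 fold change was -0.35 without ZR751shLucif replicate 2. ZR751shLucif replicate 1 also stood apart over all genes, correlating with the other libraries at 0.900 to 0.907 where those correlated among themselves at 0.947 or more. Fold changes moved with transcript GC content across genes (Spearman 0.536 over 10785 genes, a description, since genes share libraries). The 8 luminal markers lay at 10.8 FPKM or more in every library (ESR1 at 10.8 to 14.2), the basal, leukocyte and endothelial markers were at 0.256 FPKM or less in every library, and of the fibroblast markers COL1A1 lay at 13.1 to 17.8 FPKM with COL1A2 and DCN at 0.104 FPKM or less. Fewer cells with a transcript and less transcript per cell cannot be told apart in these bulk libraries.

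Sequences are shown for the promoters of TSC1, MTOR and RPTOR, where the SP1 lists held a peak in 4, 3 and 1 of the 4 libraries, and for the ERα site inside RICTOR. They run 5′ to 3′ along the gene, from 250 bases upstream of the RefSeq start (GRCh38.p14 table), and were placed on GRCh37 (hg19) by exact match; annotated untranslated and coding bases are left out. Capitals mark the GC box GGGCGG on either strand, overlaps counted, which is the core of the SP1 motif. The TSC1 stretch covers chr9:135820157-135820253 (minus strand), the MTOR stretch chr1:11322614-11322858 (minus strand) and the RPTOR stretch chr17:78518388-78518618 (plus strand). The RICTOR stretch is the 201 bases around the ERα summit in an intron, chr5:39044769-39044969, printed on the plus strand of GRCh37.
TSC1 promoter: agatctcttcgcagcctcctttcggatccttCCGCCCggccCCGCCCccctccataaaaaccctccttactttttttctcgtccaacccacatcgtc
MTOR promoter: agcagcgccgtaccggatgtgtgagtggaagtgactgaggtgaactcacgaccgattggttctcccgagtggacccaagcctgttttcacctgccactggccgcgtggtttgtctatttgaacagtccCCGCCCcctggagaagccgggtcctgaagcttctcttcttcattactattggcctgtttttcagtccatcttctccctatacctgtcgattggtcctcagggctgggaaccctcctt
RPTOR promoter: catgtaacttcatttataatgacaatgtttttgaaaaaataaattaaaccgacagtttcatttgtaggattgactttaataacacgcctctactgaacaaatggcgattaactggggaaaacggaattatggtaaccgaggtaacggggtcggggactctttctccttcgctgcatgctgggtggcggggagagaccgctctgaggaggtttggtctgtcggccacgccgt
RICTOR intron: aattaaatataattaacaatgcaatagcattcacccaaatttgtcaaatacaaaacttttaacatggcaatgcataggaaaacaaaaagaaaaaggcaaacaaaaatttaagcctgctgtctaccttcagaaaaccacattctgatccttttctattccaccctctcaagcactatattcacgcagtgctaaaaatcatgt
The 250-base window upstream of TSC1 held 2 GC boxes, that of MTOR 1 and that of RPTOR 0, whereas the windows of AKT1, AKT2, PIK3R1 and RICTOR held 7, 4, 5 and 4 and those of PIK3CA and TSC2 held 1 each. These counts are for the window at the start used for each gene. RefSeq lists further windows for AKT1 (1 GC box), AKT2 (1), PIK3R1 (2, 0 and 0) and TSC2 (1). Over all 35116 RefSeq promoter windows, more than 1 per gene for some genes, 42.6% held at least 1 GC box and 24.3% held 2 or more. The RICTOR stretch held neither the estrogen response element GGTCANNNTGACC nor its half-site AGGTCA on either strand. Among the ERα peaks called reproducible below, at a loose threshold, the element was found in 6.48% for ZR751shLucif and 8.62% for ZR751shMLL3. The half-site was found in 24.9% and 25.4% of them.

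PIK3R1 was the member whose RNA differed most between the lines: its mean was 13.5 ± 4.70 FPKM (SD, n = 2) in ZR751shLucif and 5.09 ± 1.30 FPKM (SD, n = 2) in ZR751shMLL3, 2.65 times as much in the control. No member passed the adjusted p of 0.05 over the 11134 genes tested with limma, where 0.00898% of all genes passed. At an unadjusted limma p under 0.05, 1 member was lower (PIK3R1) and 0 were higher, beside 4.31% of all genes lower and 3.67% higher. That call depended on the filter on low values: without it PIK3R1 had an unadjusted limma p of 0.0604, and the 1 member under 0.05 was AKT1, which was higher (0.0235). The libraries of the lines did not overlap for 3 members, AKT1 and RPTOR being higher in ZR751shMLL3 and PIK3R1 lower, beside 17.6% of all genes higher and 25.3% lower. The median log2 fold change of the 9 genes was 0.02, and that of all genes tested was -0.10. With 2 libraries against 2, an exact two-sided permutation test cannot go below 0.333 for any gene.

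**Figure D1:**
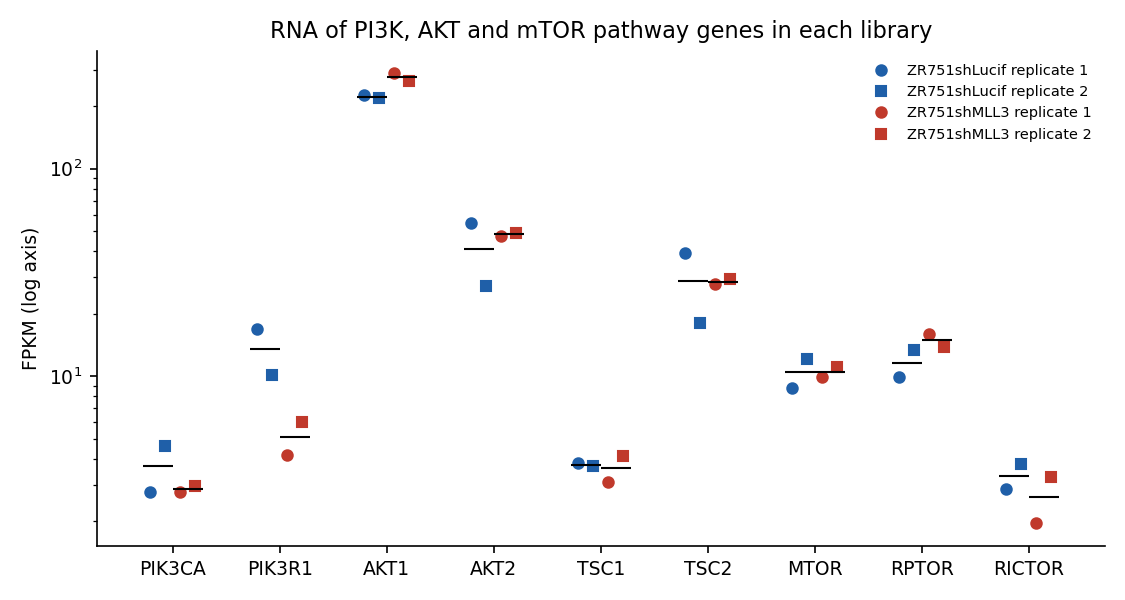
FPKM of each gene (log axis) in the 4 RNA-seq libraries, with blue points for ZR751shLucif, red points for ZR751shMLL3 and black lines for the mean of each line. AKT1 stands near 249 FPKM and RICTOR near 2.97 FPKM, and the lines are separate for PIK3R1, AKT1 and RPTOR.

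Compared per length, as mean FPKM over the 4 libraries, AKT1 was the most abundant transcript of the pathway core at 249, ahead of AKT2 at 44.6 and TSC2 at 28.6. RPTOR at 13.3, MTOR at 10.5 and PIK3R1 at 9.29 formed the middle of this pooled order, and TSC1 at 3.68, PIK3CA at 3.28 and RICTOR at 2.97 were lowest. The library ranges did not overlap between AKT1 and AKT2, between TSC2 and RPTOR, or between PIK3R1 and TSC1, while every other pair of neighbours in this order overlapped. Within lines the order in the middle differed: the PIK3R1 mean of 13.5 in ZR751shLucif was above those of RPTOR (11.6) and MTOR (10.4), and its mean of 5.09 in ZR751shMLL3 was below theirs, MTOR having 10.5 there and RPTOR more. The catalytic PI3K subunit PIK3CA thus lay below the regulatory subunit PIK3R1, and TSC1 below its partner TSC2. Other PI3K subunits outside the 9 genes were more abundant. The regulatory PIK3R2 had 43.9 and 33.0 FPKM in ZR751shLucif and 40.9 and 44.4 FPKM in ZR751shMLL3. PIK3R3, also regulatory, had 25.6 and 28.2 against 22.0 and 32.2, and the catalytic PIK3CB 13.2 and 10.9 against 10.1 and 12.8. For PIK3R2, PIK3R3 and PIK3CB the lines overlapped.

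PIK3R1 (chr5:67511568-67597649, plus strand) encodes the regulatory subunit p85-alpha, which stabilises and restrains the catalytic subunit. PIK3R1 had 16.8 and 10.2 FPKM in the 2 ZR751shLucif libraries, and 4.17 and 6.01 FPKM in the 2 ZR751shMLL3 libraries. Both control libraries were above both knockdown libraries. The log2 fold change, on log2(FPKM + 0.5) as for every gene here, was -1.30 ± 0.35 (SE), with an unadjusted limma p of 0.00929 and an adjusted p of 0.495 over all genes. With the GC trend of each library removed it was -0.97 (unadjusted limma p 0.0153), and without ZR751shLucif replicate 1 it was -0.95. Without ZR751shLucif replicate 2 it was -1.65 with an adjusted limma p of 0.0243, in a fit that called 364 genes higher and 969 lower where the fit on all 4 libraries called 0 higher and 1 lower. PIK3CA (chr3:178865902-178957881, plus strand) encodes the catalytic subunit p110-alpha and is the PI3K gene most often mutated in breast cancer. Its values were 2.77 and 4.60 FPKM for ZR751shLucif, and 2.78 and 2.95 FPKM for ZR751shMLL3. The knockdown libraries lay between the control libraries, and the log2 fold change was -0.28 ± 0.32 (SE, adjusted limma p 0.776), or 0.12 with the GC trend removed and -0.60 without ZR751shLucif replicate 1. A pseudogene elsewhere in the genome nearly matches part of PIK3CA, so its FPKM is uncertain to the extent that reads were shared.

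AKT1 (chr14:105235686-105262088, minus strand) encodes the AKT kinase found in nearly all cells, and AKT2 (chr19:40736224-40791443, minus strand) the AKT kinase best known for insulin signalling. AKT1 RNA reached 225 and 219 FPKM in the ZR751shLucif libraries and 288 and 264 FPKM in the ZR751shMLL3 libraries. The knockdown libraries were both higher, by 0.31 ± 0.26 (SE) in log2 with an adjusted limma p of 0.706. With the GC trend removed the AKT1 log2 fold change was 0.09, its transcript being 61.2% GC. In ZR751shLucif AKT2 had 54.6 and 27.2 FPKM, and in ZR751shMLL3 47.4 and 49.2 FPKM. The control libraries of AKT2 lay on either side of the knockdown libraries, and the log2 fold change was 0.32 ± 0.38 (SE, adjusted limma p 0.787). Its sign depended on 1 control library: the AKT2 log2 fold change was 0.82 without ZR751shLucif replicate 1 and -0.18 without ZR751shLucif replicate 2.

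TSC1 (chr9:135766735-135822261, minus strand) encodes hamartin and TSC2 (chr16:2097968-2139492, plus strand) tuberin, the subunits of the complex that turns Rheb off. TSC1 RNA was low, with 3.80 and 3.68 FPKM in ZR751shLucif against 3.10 and 4.13 FPKM in ZR751shMLL3. The lines overlapped, with a log2 fold change of -0.06 ± 0.28 (SE, adjusted limma p 0.957). TSC2 had 39.3 and 18.1 FPKM in the control libraries and 27.7 and 29.3 FPKM in the knockdown libraries. As for AKT2, the control libraries of TSC2 lay on either side of the knockdown libraries, and the log2 fold change was 0.09 ± 0.40 (SE, adjusted limma p 0.949). It was 0.64 without ZR751shLucif replicate 1 and -0.46 without ZR751shLucif replicate 2. TSC2 starts head to head with NTHL1 and ends beside PKD1 on the opposite strand. The library kit keeps strand, but the strand setting of the quantification is not given in the sources used here, so reads of such neighbours may not have been told apart.

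MTOR (chr1:11166592-11322613, minus strand) encodes the kinase, RPTOR (chr17:78518619-78940171, plus strand) the mTORC1 scaffold that binds substrates, and RICTOR (chr5:38938022-39074504, minus strand) the mTORC2 scaffold. For MTOR the control libraries gave 8.82 and 12.1 FPKM and the knockdown libraries 9.93 and 11.1 FPKM. The knockdown libraries fell within the control range, with a log2 fold change of 0.02 ± 0.29 (SE, adjusted limma p 0.984), and ANGPTL7 and MTOR-AS1 lie within MTOR. For RPTOR the values were 9.92 and 13.3 FPKM in the control libraries against 16.0 and 13.9 FPKM in the knockdown libraries. Both knockdown libraries were higher for RPTOR, with a log2 fold change of 0.36 ± 0.29 (SE, adjusted limma p 0.696) that was 0.16 with the GC trend removed. RICTOR had 2.86 and 3.79 FPKM in the control and 1.96 and 3.28 FPKM in the knockdown libraries. The lines overlapped for RICTOR, with a log2 fold change of -0.32 ± 0.33 (SE, adjusted limma p 0.760), or 0.08 with the GC trend removed.

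**Figure D2:**
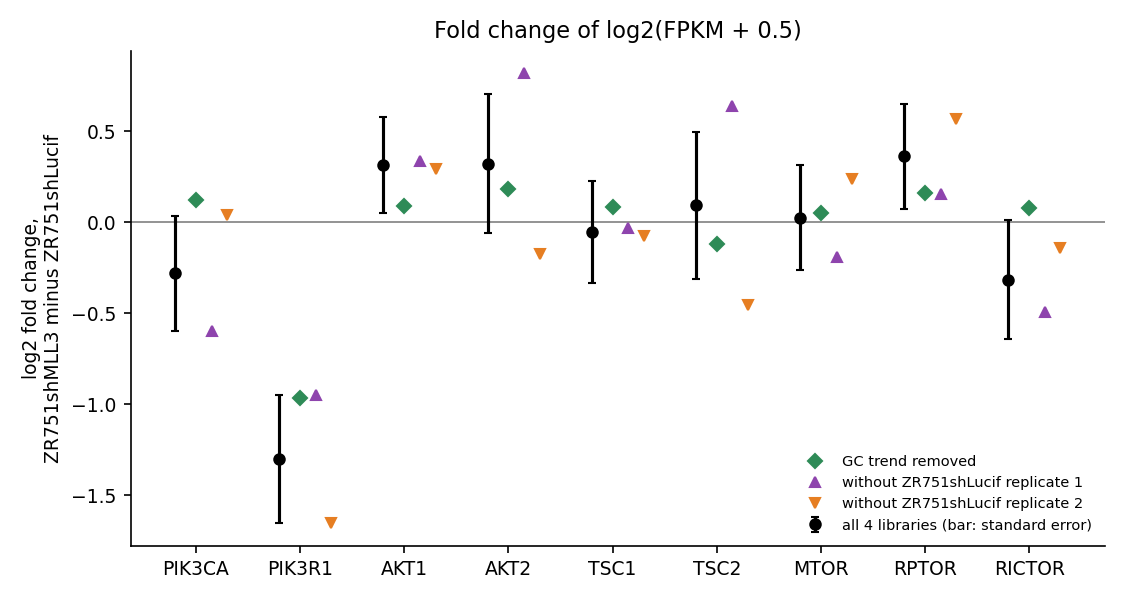
Log2 fold change (ZR751shMLL3 minus ZR751shLucif) of the 9 genes with all 4 libraries (black, bars for the standard error), with the GC trend removed (green), and without each control library (purple and orange). PIK3R1 lies below 0 in all of them, between -0.95 and -1.65, while AKT2, PIK3CA, TSC1, TSC2, MTOR and RICTOR cross 0.

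The order of the 9 fold changes followed GC content in part. The transcripts of PIK3CA, RICTOR and PIK3R1, at 35.7%, 36.5% and 40.1% GC, had the most negative values. AKT1, TSC2, RPTOR and AKT2, at 61.2%, 60.4%, 60.0% and 58.0% GC, had the positive values together with MTOR at 52.3%, and TSC1 at 48.3% lay near 0. With the GC trend removed, the median log2 fold change of the 9 genes was 0.08. PIK3R1 was the only member more than 0.5 away from 0, both before and after that removal.

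**Figure D3:**
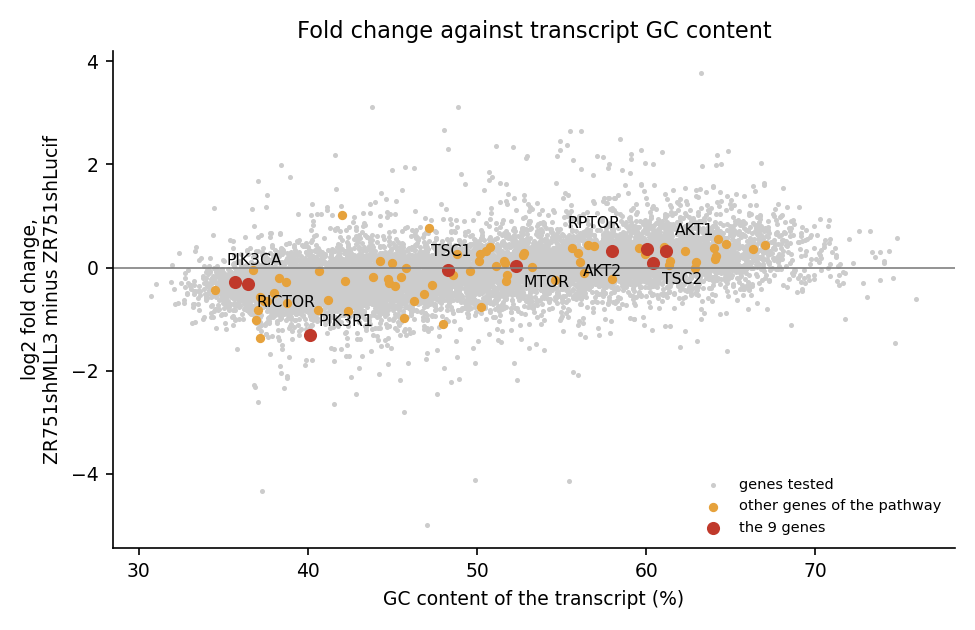
Log2 fold change (ZR751shMLL3 minus ZR751shLucif) against transcript GC content in percent for the genes tested (grey), the other genes of the pathway (orange) and the 9 genes (red). The cloud slopes upward with GC (Spearman 0.536), and PIK3R1, at 40.1% GC and -1.30, is the lowest of the 9 genes.

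Around the 9 genes, 83 further genes of the pathway were listed by role, of which 72 were tested, 8 were below the expression filter and 3 shared an entry with another gene. Of the 72, 35 had a log2 fold change above 0 and 37 below, with a median of -0.01, and 15 were higher and 20 lower without overlap of the lines, beside 17.6% and 25.3% of all genes. None passed the adjusted p of 0.05 with limma (the lowest was 0.355), and at an unadjusted p under 0.05 there were 2 higher and 7 lower, beside 3.67% and 4.31% of all genes. All 9 of these kept their sign with the GC trend removed and without ZR751shLucif replicate 1. Without that library the log2 fold changes of RHEB and PRKAA1, given below with all libraries, were -0.64 and -0.64. That of RPS6, which is not among the 9 but is also given below, was -0.41. Among the genes that sense amino acids for mTORC1, SESN3, a sestrin that restrains it, had 3.67 and 3.65 FPKM in ZR751shLucif and 1.03 and 1.19 FPKM in ZR751shMLL3, a log2 fold change of -1.37 ± 0.26 (SE). Its relative SESN1 had a log2 fold change of -0.82, and RRAGD, a Rag GTPase that brings mTORC1 to the lysosome, had 3.74 and 4.23 FPKM against 9.09 and 8.06 FPKM, a log2 fold change of 1.02 ± 0.27 (SE). SESN3 and SESN1 restrain mTORC1 and RRAGD helps to activate it, and for all of them the lines were separate. With the GC trend removed their log2 fold changes were -0.98, -0.49 and 1.31.

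RHEB, the direct activator of mTORC1, had 143 and 76.3 FPKM in ZR751shLucif and 49.7 and 47.6 FPKM in ZR751shMLL3, a log2 fold change of -1.09 ± 0.36 (SE, adjusted limma p 0.595), with processed pseudogenes making its reads uncertain. TBC1D7, the third subunit of the TSC complex, had the largest positive value of that role at 0.26. DEPTOR, an inhibitor within both mTOR complexes, had a log2 fold change of -0.98, and TELO2, which helps to assemble them, 0.36. PRKAA1, a catalytic subunit of the energy sensor AMPK, had -1.02, and STK11, the kinase that activates AMPK, 0.44. With the GC trend removed the values were -0.95 for RHEB, -0.77 for DEPTOR, 0.05 for TELO2, -0.63 for PRKAA1 and 0.13 for STK11. Inhibitors and activators of mTORC1 were thus both found among the lower values.

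Closer to the membrane, INPP4B, a phosphatase that removes PI3K lipids and is known as a tumor suppressor, had a log2 fold change of -0.81, and INPP5K, another such phosphatase, 0.43. Among the other PI3K subunits PIK3C2A had -0.65 and PIK3C2B 0.37, and among receptor adaptors GAB1 had -0.49 (-0.12 with the GC trend removed) and IRS1, whose lines overlapped, 0.39 (-0.10 without ZR751shLucif replicate 1). With the GC trend removed INPP4B had -0.43, INPP5K 0.33, PIK3C2A -0.27 and PIK3C2B 0.30. PDPK1, the kinase that phosphorylates AKT, was the 1 kinase of its group that was tested and had 0.12. Among the targets of the pathway EEF2K, the elongation factor kinase that mTORC1 signalling restrains, had -0.77 and LPIN1, a lipid phosphatase phosphorylated by mTORC1, 0.76. RPS6, the ribosomal protein phosphorylated by S6 kinases, had -0.84 (adjusted limma p 0.620) and has many pseudogenes. With the GC trend removed EEF2K, LPIN1 and RPS6 had -0.69, 0.93 and -0.55.

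In the chromatin data, the 20000 top-ranked peaks of each list (rank 1 being the strongest signal) were counted within 50 kb of each gene. The deposited lists differed in scale and ran from 156481 to 300000 peaks, though those of H3K4me1 were of nearly equal length. With an equal number taken from every list, these counts cannot show a loss or gain of peaks across the genome. H3K4me1, the mark that MLL3 places, had 8 and 8 such peaks around the 9 genes in ZR751shLucif and 9 and 12 in ZR751shMLL3. The means were 8.0 ± 0.0 and 10.5 ± 2.12 (SD, n = 2, exact permutation p 0.333, two-sided). AKT2 had 0 and 0 H3K4me1 peaks in ZR751shLucif and 1 and 4 in ZR751shMLL3. RICTOR had 0 and 1 in ZR751shLucif and 3 and 2 in ZR751shMLL3. AKT2 and RICTOR were thus the 2 members with more peaks in both knockdown libraries, beside 6.94% of 10903 genes, and 0 members had fewer, beside 7.58%. This order depended on the length of the lists. Among the 50000 top-ranked peaks the lines overlapped, with 0 and 3 against 1 and 4 for AKT2 and 2 and 7 against 6 and 6 for RICTOR. At an FDR of 0.01, where the lists differ in length, the control had more on average, with 5 and 11 against 1 and 8 for AKT2 and 10 and 26 against 3 and 10 for RICTOR. At that FDR PIK3R1 had 20 and 32 in ZR751shLucif against 2 and 7 in ZR751shMLL3, and AKT1 8 and 16 against 0 and 2. In the same order MTOR had 8 and 12 against 0 and 5, and TSC1 5 and 7 against 0 and 1. RPTOR had 20 and 27 against 6 and 17. The lines overlapped for PIK3CA (1 and 8 against 0 and 4) and TSC2 (4 and 5 against 1 and 5). Over the whole genome the lists held 141158 and 192201 such peaks in ZR751shLucif and 28599 and 109586 in ZR751shMLL3. With 20000 peaks, PIK3CA, TSC1 and TSC2 had 0 in every library.

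Peaks that ranked alike in both replicates, by the irreproducible discovery rate (IDR) at 0.1, gave 12 H3K4me1 peaks around the members in ZR751shLucif and 6 in ZR751shMLL3. They lay near 3 members in each line, beside 50.2% of genes for ZR751shLucif and 30.2% for ZR751shMLL3, whose reproducible sets held 28523 and 10760 peaks. In ZR751shLucif they belonged to AKT1, PIK3R1 and RPTOR, and in ZR751shMLL3 to AKT2, RPTOR and RICTOR. Within RPTOR some peaks of the same line overlapped each other, in both lines. These were counted separately here but are merged into sites below, so there are fewer sites than peaks. At a stricter IDR of 0.05 there were 2 in each line, all within RPTOR. The sites of the other genes therefore depended on the threshold. Since a site had to rank high in both libraries of a line to be listed, a weaker rank in the other line is a description and no test.

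PIK3R1 had 4 reproducible H3K4me1 sites in ZR751shLucif, with an IDR of 0.0711 to 0.0807, and 0 in ZR751shMLL3. At an IDR of 0.05 PIK3R1 had none in either line. The site in its intron 39.3 kb into the gene (chr5:67550311-67551492) ranked 51137 and 24020 in ZR751shLucif and 21937 and 73342 in ZR751shMLL3. The intronic site at 71.5 kb (chr5:67582294-67583884) ranked 15908 and 64299 in ZR751shLucif and 103677 and 92571 in ZR751shMLL3. The intronic site at 80.1 kb (chr5:67590743-67592594) ranked 3353 and 77054 in ZR751shLucif and 77367 and 170903 in ZR751shMLL3. The lines overlapped at the first of these, and at the other two both control libraries ranked ahead of both knockdown libraries, by a narrow margin at 80.1 kb. The intergenic site 116.4 kb from the start (chr5:67627489-67628522) ranked 26371 and 50391 in ZR751shLucif and 44211 in ZR751shMLL3 replicate 1, with no listed peak in replicate 2. RefSeq also lists starts of PIK3R1 at 72763, 74908 and 76821 bases from the start used here, between the sites at 71.5 and 80.1 kb. The expression entry pools several RefSeq transcripts of PIK3R1, so RNA from these starts was not told apart. PIK3R1 is also the member with the lower RNA in ZR751shMLL3, and a link between its marks and its RNA was not tested.

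RPTOR, the longest of the 9 genes, held reproducible H3K4me1 sites in both lines. The intronic site at 162.1 kb (chr17:78679751-78681466) was reproducible in both, ranking 61115 and 28625 in ZR751shLucif and 9228 and 14528 in ZR751shMLL3. The intronic site at 216.7 kb (chr17:78734778-78735954) held the top-ranked H3K4me1 peak near any member, rank 248 in ZR751shLucif replicate 2. The ranks of that site were 7297, 2567 and 94771 in ZR751shLucif replicate 1 and ZR751shMLL3 replicates 1 and 2, so it was strong in 3 of the libraries. Just before it, a neighbouring intronic site (chr17:78733161-78734124) ranked 11577 and 3867 in ZR751shLucif and 29782 in ZR751shMLL3 replicate 1, with no peak in replicate 2. At 311.6 kb (chr17:78829768-78830851) the order was the other way, with ranks of 16385 and 2931 in ZR751shMLL3, 121003 in ZR751shLucif replicate 1 and no peak in replicate 2. Near the start of RPTOR, the sites at 1.5 kb (chr17:78519451-78520767) and 4.2 kb (chr17:78522386-78523360) were reproducible in ZR751shLucif. The first of them ranked 60091 and 17214 there against 175895 and 135302, and the second 25412 and 48497 against 121736 and 8346. RPTOR therefore held sites in either direction within 1 gene.

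AKT1 had a reproducible H3K4me1 site 0.8 kb upstream of its start in ZR751shLucif (chr14:105262434-105263397), ranking 19617 and 58944 there, with no peak in ZR751shMLL3 replicate 1 and rank 182438 in replicate 2. A second AKT1 site 24.6 kb upstream, at the promoter of the noncoding gene LINC00638 (chr14:105285734-105287509), ranked 35102 and 46383 against 31328 and 64456. The lines overlapped there. The AKT2 site lay 60.1 kb from its start in an intron of the neighbour CCNP (chr19:40730730-40731569) and ranked 70173 and 3206 in ZR751shMLL3 with no peak in either control library. The RICTOR site 1.4 kb upstream of its start (chr5:39075423-39076292) ranked 17095 and 28097 in ZR751shMLL3 and 41932 and 52320 in ZR751shLucif. Both knockdown libraries ranked ahead at the RICTOR site.

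**Figure D4:**
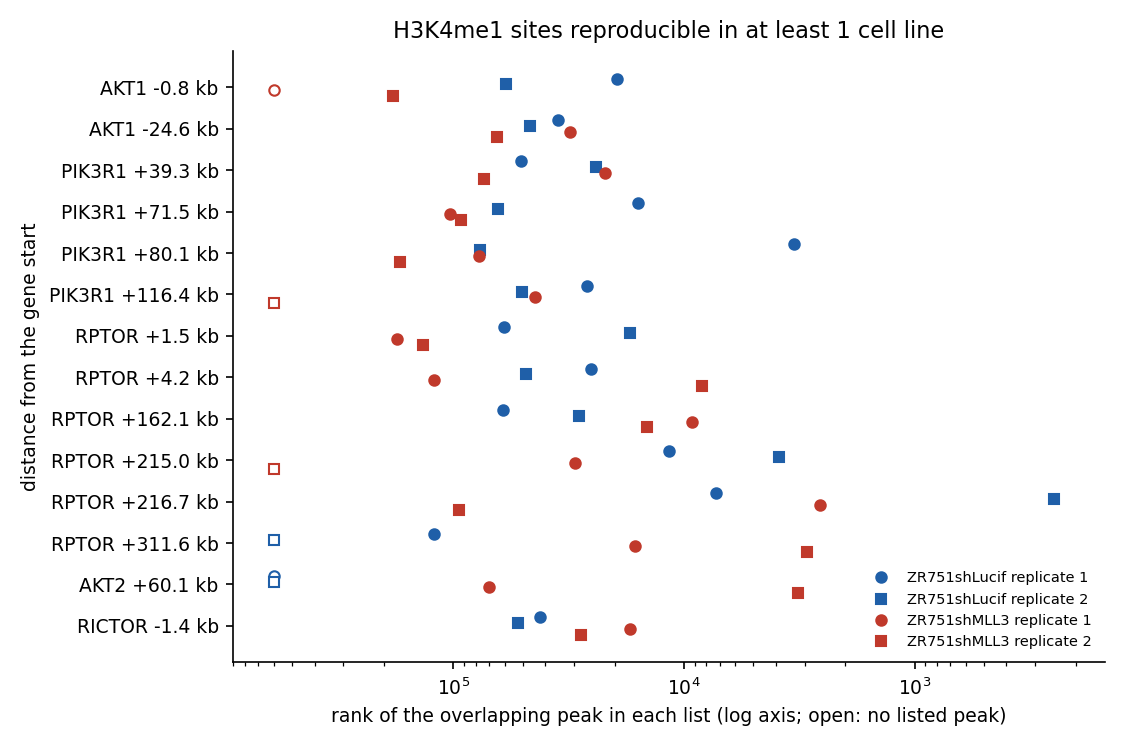
Rank (log axis, strongest to the right) of the H3K4me1 peak in each list at the sites that were reproducible in at least 1 line, named by gene and distance from its start, with open symbols where no peak was listed. The 80.1 kb site of PIK3R1 ranked 3353 to 170903, and the 162.1 kb site of RPTOR was within rank 61115 in all 4 libraries.

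ERα, the estrogen receptor that marks ER+ cells, had 16 and 12 top-ranked peaks near the members in ZR751shLucif and 6 and 16 in ZR751shMLL3. The means were 14.0 ± 2.83 and 11 ± 7.07 (SD, n = 2, exact permutation p 1.0, two-sided), and without ZR751shMLL3 replicate 1 the difference was 2 rather than -3. AKT1 was the 1 member with fewer in both knockdown libraries, 1 and 1 against 0 and 0, beside 6.70% of genes, and 0 members had more, beside 3.88%. The AKT1 summits lay upstream, at -18252 and -17823 bases from its start, with ranks 3481 and 12882, and the peaks did not overlap each other. Reproducible ERα peaks (IDR of 0.7 or less) lay near 0 members in ZR751shLucif, beside 6.48% of genes, and near 1 in ZR751shMLL3, beside 5.54%. That 1 was RICTOR, at an intronic site 29.6 kb into the gene (chr5:39044374-39045208). The RICTOR site ranked 6805 and 2392 in ZR751shMLL3 and had no listed peak in either ZR751shLucif library, and its central bases are those printed above for RICTOR. At a stricter IDR of 0.05 no reproducible ERα peak lay near a member in either line. The threshold of 0.7 is loose, since the fit allows up to that share of the set to be irreproducible. The ERα sets held 1219 peaks in ZR751shLucif and 1369 in ZR751shMLL3 at 0.7, but 230 and 280 at 0.05. The top-ranked ERα peak near any member was rank 679 in ZR751shLucif replicate 1, in an intron of TSC2 39804 bases from its start. It rested on 1 library. The best ERα peak within 50 kb of TSC2 ranked 204108 in ZR751shLucif replicate 2 and 47336 and 7025 in ZR751shMLL3.

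SP1, a zinc finger activator that binds GC boxes at many housekeeping promoters, had 5 and 14 top-ranked peaks near the members in ZR751shLucif and 10 and 28 in ZR751shMLL3. The means were 9.5 ± 6.36 and 19.0 ± 12.7 (SD, n = 2, exact permutation p 0.667, two-sided). At an FDR of 0.01 the counts were 0 and 0 against 111 and 23, but the ZR751shLucif SP1 lists hold 0 peaks at that FDR anywhere in the genome. No member had more in both knockdown libraries, beside 15.5% of genes, and 1, TSC1, had fewer, with 2 and 2 against 1 and 1, beside 2.52%. ZR751shMLL3 replicate 2 stood apart: 51.6% of genes had a top-ranked SP1 summit within 1 kb of their start there, against 4.94% and 5.81% in the ZR751shLucif libraries and 6.33% in ZR751shMLL3 replicate 1. By the same count the members with such a summit were 1 and 2 in ZR751shLucif and 2 and 6 in ZR751shMLL3. Without that library the difference in peaks near the members was 0.5 rather than 9.5.

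TSC1 was the member with a top-ranked SP1 peak at its promoter in all 4 libraries, at ranks 116 and 24 in ZR751shLucif and 37 and 92 in ZR751shMLL3. Every one of these ranks was within the first 116 of its list, and rank 24 was the top-ranked SP1 peak near any member. The −log10 FDR of these peaks was 1.54 and 1.21 in ZR751shLucif, short of an FDR of 0.01, and 3.52 and 3.28 in ZR751shMLL3. Of 10903 genes, 0.936% had a top-ranked SP1 summit within 1 kb of their start in all 4 libraries, and 0.266% had one within the first 1000 ranks in all 4. The TSC1 summits lay 23 and 81 bases upstream of the start in ZR751shLucif and 104 and 86 bases upstream in ZR751shMLL3, downstream of the 2 GC boxes, which are bases 32 to 37 and 42 to 47 of the printed TSC1 stretch. The site (chr9:135819839-135820338) overlaps the first exon of TSC1, exons of GFI1B on the other strand and the promoter of MIR548AW. It was also the 1 reproducible SP1 peak near a member in ZR751shMLL3 (IDR of 0.5 or less, beside 24.4% of genes), while for ZR751shLucif the IDR fit gave no set. Other antibodies were weak there: H3K4me1 had a peak in 1 library at rank 106087, and ERα had peaks in both ZR751shLucif libraries at ranks 40970 and 39201 and in neither ZR751shMLL3 library. TSC1 RNA overlapped between the lines, as given above.

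The MTOR promoter had an SP1 summit at ranks 67124 and 7657 in ZR751shLucif, none in ZR751shMLL3 replicate 1 and rank 133 in ZR751shMLL3 replicate 2. At the starts of TSC2, AKT2, RICTOR and PIK3R1 SP1 was listed in ZR751shMLL3 replicate 2 alone, at ranks 986, 8725, 9899 and 11482. That is the library with SP1 at 51.6% of gene starts, so for these genes a difference between the lines and a difference between libraries cannot be told apart. PIK3CA had ranks of 194173 and no peak in ZR751shLucif and 11788 and 104702 in ZR751shMLL3. RPTOR, whose window held no GC box, had a single SP1 peak at rank 87935 in ZR751shLucif replicate 1. AKT1, whose window held 7, had a single one at rank 94462 in ZR751shMLL3 replicate 2.

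**Figure D5:**
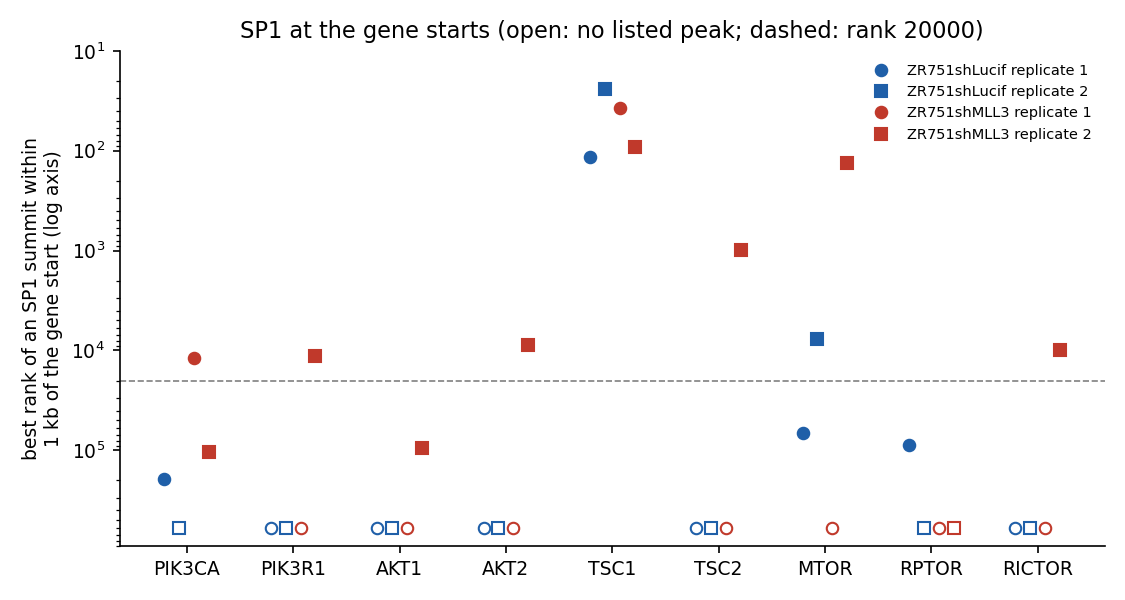
Best rank (log axis, strongest at the top) of an SP1 summit within 1 kb of each gene start in the 4 libraries, with open symbols where none was listed and a dashed line at rank 20000. TSC1 lies at ranks 24 to 116 in all 4 libraries, and most other ranks above the line come from ZR751shMLL3 replicate 2.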

How the data were processed

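RNA-seq (TruSeq Stranded Total RNA kit) and ChIP-seq were made from 2 libraries per line and antibody. FPKM values were made by the authors with TopHat2 2.0.13, Cufflinks 2.2.1 and Cuffnorm 2.2.1 on hg19 (submitters' processing notes); the table gives no read depth. ChIP-seq reads were aligned with BWA 0.7.5a-r405 and filtered with Picard 1.126. The authors deposited SPP peaks of each library against its input, with a signal and a −log10 FDR per peak.

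From these files, log2(FPKM + 0.5) of the 11134 genes with a mean above 1 was fitted with limma 3.58.1 (R 4.3.3), with Benjamini-Hochberg adjustment over all of them, after a test on simulated data. The study's surrogate variable step leaves almost no residual with 4 libraries, so removing the first residual component is an alternative. Of the entries, 97.4% matched a symbol, and 1 blank row was left out. GENCODE (GRCh37) gave GC content for 96.9% of the genes tested and positions for 10903. Peaks were ranked by signal and compared with bedtools 2.31.1 and Python 3.11.15. Reproducible peaks overlapped by at least 1 base in both replicates and passed an IDR threshold taken from the study's supplement, whose thresholds are not the same throughout, with the IDR model refitted here. Alternatives were other pseudocounts, filters, scalings, trends, windows and thresholds, a replicate block and leaving out each library.

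The text names the 9 genes, KMT2C, in each role of the pathway list the largest positive and negative value and any gene with an unadjusted p under 0.05 and no overlap, every reproducible peak near a member and the top-ranked peak per antibody. Outside this rule, PIK3R2, PIK3R3 and PIK3CB are named beside PIK3R1 and PIK3CA. Members and lists were chosen with earlier results of these data known. The SP1 counts at gene starts were chosen after seeing the data.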

Additional observations from a re-analysis of the deposited data

How the results depend on the processing

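The PIK3R1 value kept its sign under every alternative run, as did those of AKT1 and RPTOR. Leaving out 1 library gave -1.65 to -0.95 for PIK3R1, 0.25 to 0.38 for AKT1 and -0.18 to 0.82 for AKT2. The same step gave -0.60 to 0.039 for PIK3CA, -0.62 to -0.0064 for RICTOR and 0.16 to 0.57 for RPTOR. For MTOR, TSC1 and TSC2 it gave -0.19 to 0.24, -0.24 to 0.13 and -0.46 to 0.64. It gave 0 to 1 members past the adjusted p (PIK3R1 without ZR751shLucif replicate 2), 0 to 4 at an unadjusted limma p under 0.05 (4 without ZR751shLucif replicate 1, 0 without ZR751shMLL3 replicate 1), and a median of -0.077 to 0.13 for the members and -0.23 to 0.039 for the wider list, both of which also changed sign under scaling or trend alternatives. Differences in peaks near the members ran from 1 to 4 for H3K4me1, -8 to 2 for ERα and 0.5 to 18.5 for SP1.

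With the GC trend removed, PIK3CA was 0.12, RICTOR 0.077, TSC1 0.083 and TSC2 -0.12, and with length too MTOR was -0.10 and TSC2 -0.21. With libraries centred on their median, TSC1 was 0.024. With the first residual component removed, 0 members were at an unadjusted p under 0.05 by an ordinary t-test, not the moderated limma test. That count is therefore not comparable with the count of the main fit. The cause of these changes was not tested. At an FDR of 0.01 the H3K4me1 difference was -76.5 and the SP1 difference 67, on lists whose lengths at that FDR differ, and within 10 kb the ERα difference was 1. Reproducible H3K4me1 peaks near members were 2 in each line at an IDR of 0.05 and 43 in ZR751shLucif with an FDR of 0.01 in both replicates, and the ERα peak in ZR751shMLL3 became 0 under both.

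Same-numbered libraries shared only a number (correlation of deviations 0.0374). The replicate block changed no call among the members, leaving 0 past the adjusted p and PIK3R1 at 0.355, while over all genes it called 14 higher and 19 lower. With no filter on low values AKT1 rather than PIK3R1 was the 1 member at an unadjusted limma p under 0.05. The FPKM table gives no read depth, and 2 libraries per line limit every test.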
